A study of Rattus norvegicus with 145 samples.

Results

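The genes described here build, cut and protect the extracellular matrix of the liver. They are the rows of the rat count data whose symbols begin as those of the collagens, laminins, matrix metalloproteinases (Mmp) or tissue inhibitors of metalloproteinases (Timp), and they were chosen by symbol alone. Of 17337 genes listed, 61 matched, and they comprise 28 collagen symbols, 8 laminin chains, 21 metalloproteinases and 4 inhibitors. One of the 28 collagen symbols, Col4a3bp, encodes a ceramide transfer protein and is no collagen. Of the 61 members, 37 passed the filter on low counts and were tested in all 5 data sets, 4 were tested in some (Col4a4, Col9a2, Lamc3 and Mmp28) and 20 in none. Among these 20, Col15a1, Col1a2, Col23a1, Col2a1, Col9a1, Lama1 and Mmp1 had at most 3 counts in every rat. The other members tested in no data set were Col11a1, Col17a1, Col26a1, Col6a4, Mmp3, Mmp7, Mmp8, Mmp10, Mmp13, Mmp20, Mmp21, Mmp27 and Timp4. The filter is that of edgeR, and both DESeq2, which was run without it, and edgeR with the filter dropped called 4 of these 20 (Mmp7, Mmp20, Col17a1 and Col26a1) on at most 16, 30, 17 and 16 counts in any rat. The filter took 38 members in experiment A and, in experiment B, 37 and 38 in males (day 8 and day 29) and 39 and 41 in females.

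Rats received acetamide, a food contaminant, in water by daily gavage, and the controls received the water alone. In experiment A, male Wistar rats of the stock Hsd:WI, aged 9 to 10 weeks, were dosed for 7 days with 30, 100 and 300 up to 1000 mg/kg/day (mkd) or with water (0 mkd) and sampled on day 8. In experiment B, male and female Crl:WI rats aged 8 to 10 weeks were given 0, 300, 500, 750, 1000 or 1500 mkd for 7 or 28 days and sampled on day 8 or day 29. RNA of the left liver lobe was sequenced from 5 rats per group, 145 rats in 29 groups, and every dose was set against the vehicle control rats of the same data set. The study asked which transcripts and biological processes respond to acetamide and at which dose. The replicates of a group are separate rats. The experiments differed in stock and in highest dose, so that a difference between them cannot be told apart from these.

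Collagens are triple-helical proteins that form fibrils (types I, III and V) or the sheets of basement membranes (type IV). Laminins are trimers of an alpha, a beta and a gamma chain and anchor epithelial and endothelial cells to those sheets. Metalloproteinases cut matrix proteins outside the cell or at its surface, and Timp proteins block them. In liver, fibrillar collagens come mainly from stellate cells and portal fibroblasts, Mmp12 is known as the elastase of macrophages, and a surplus of fibril over breakdown is the hallmark of fibrosis.

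The libraries held 15449716 to 39986531 reads on genes (median 28262376). Levels are given as CPM, the reads of a gene scaled to a common library size with the TMM factors of its data set. They allow a gene to be compared between rats of a data set but not with another gene. CPM of different data sets, as of the sexes or the days, do not share these factors. The log2 fold changes between sexes and days come from joint fits and can differ from the ratio of the CPM. All 10 hepatocyte markers were detected, as a liver sample should show. Replicate 3 of the 1500 mkd males on day 29 stood apart from its group, with 243 CPM of Mki67, a transcript of dividing cells, against 3.07 to 14.1 CPM in the other 4 rats. The day 29 control males carry the exposure label of the other experiment, and their stock and their place in the design are those of experiment B. In RNA of whole liver, more cells of a type and more RNA per cell cannot be told apart.

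At 1000 mkd in experiment A, the laminin chain Lama5, the elastase Mmp12, the membrane-anchored protease Mmp15, the inhibitors Timp1 and Timp3 and the chains Lamb3, Col4a1 and Col11a2 were up-regulated. Here called means that a gene differed 1.5-fold or more and had an adjusted p no higher than 0.05 (Benjamini-Hochberg, over all genes tested) in edgeR's quasi-likelihood test. These 8 of 38 members stand beside 14.0% of all genes called up at this dose, and 0 members were called down, beside 7.45% of all genes. At 30, 100 and 300 mkd 0 members were called by edgeR or DESeq2, and edgeR called 0 of all 11323 genes tested at each dose. At these doses 1, 0 and 1 members had an unadjusted p under 0.05, beside 2.86%, 2.05% and 1.93% of all genes. DESeq2 called the same 8 at 1000 mkd and also Mmp7 and Mmp20, which the filter had left out. With the fit limited to the 2 groups compared, 5 of the members were called. Leaving out a single rat took the count from 8 to 4 without 1000 mkd replicate 2, to 3 without control replicate 2 or 3 and to 5 without control replicate 4.

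In experiment B the calls were fewer on day 8 than on day 29 in both sexes. In males day 8, 0 of 37 members were called at 1500 mkd by edgeR and by DESeq2, while 10 had an unadjusted p under 0.05 (beside 12.6% of all genes). The share of all genes called was 0.142% up and 0.0354% down. At 300, 500, 750 and 1000 mkd the same males had 0 members called with either tool, and edgeR called 0 of all 11304 genes. At these doses 2, 1, 4 and 2 members had an unadjusted p under 0.05, beside 1.41%, 3.32%, 7.65% and 4.70% of all genes. In females day 8, Lama5 and Mmp12 were up-regulated at 1500 mkd (2 of 39 members, with 0.522% of all genes called up and 0.183% down), and Mmp12 also at 1000 mkd (1.03% of all genes up). DESeq2 also called Mmp11 at 1500 mkd, and with the fit limited to the 2 groups compared the count there was 1. In males day 29, Col11a2 and Timp1 rose and Mmp14 fell at 1500 mkd (3 of 38 members, with 3.16% of all genes called up and 1.76% down), and 0 members were called with the fit limited to the 2 groups compared. At 1000 mkd the same males had Lama5, Col11a2 and Timp1 up-regulated, beside 0.949% of all genes, and the fit limited to 2 groups called 5. In females day 29, 7 of 41 members were up-regulated at 1500 mkd, among them Lama5, Mmp12, Timp1, Col4a1, Col27a1 and Mmp16, beside 9.55% of all genes up and 3.54% down, while 3 members were called in the fit limited to 2 groups. DESeq2 also called Col17a1 up and Col26a1 down there. At 1000 mkd, Lama5, Mmp16, Mmp2, Col3a1 and Col5a1 rose in these females, 5 of 41 members, beside 1.23% of all genes, and the fit limited to 2 groups called 1. DESeq2 also called Col14a1, Col5a2 and Col6a2 at 1000 mkd. At 300, 500 and 750 mkd edgeR called 0 members in these 3 data sets. Of all 11279 genes in males day 29 it called 0, 0 and 28 up and 0, 0 and 60 down. Of all 11497 in females day 8 it called 1, 1 and 1 up and 0, 1 and 1 down. Of all 11451 in females day 29 it called 0, 4 and 19 up and 0, 0 and 2 down. An unadjusted p under 0.05 was found there for 4, 4 and 8 members in males day 29, for 2, 6 and 4 in females day 8 and for 1, 12 and 11 in females day 29. Of all genes, 5.66%, 13.7% and 22.9% had such a p in males day 29, 2.57%, 6.45% and 14.0% in females day 8 and 3.49%, 11.4% and 15.6% in females day 29. DESeq2 called Mmp14 in males day 29 and Mmp12 in females day 8 at 750 mkd, and 5 members in females day 29 at 500 mkd (Col3a1, Col5a1, Col5a2, Mmp16 and Mmp2). The shares of all genes called are throughout those of edgeR with all groups in the fit. Counts from DESeq2 and from fits limited to 2 groups have no such share beside them.

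**Figure D1:**
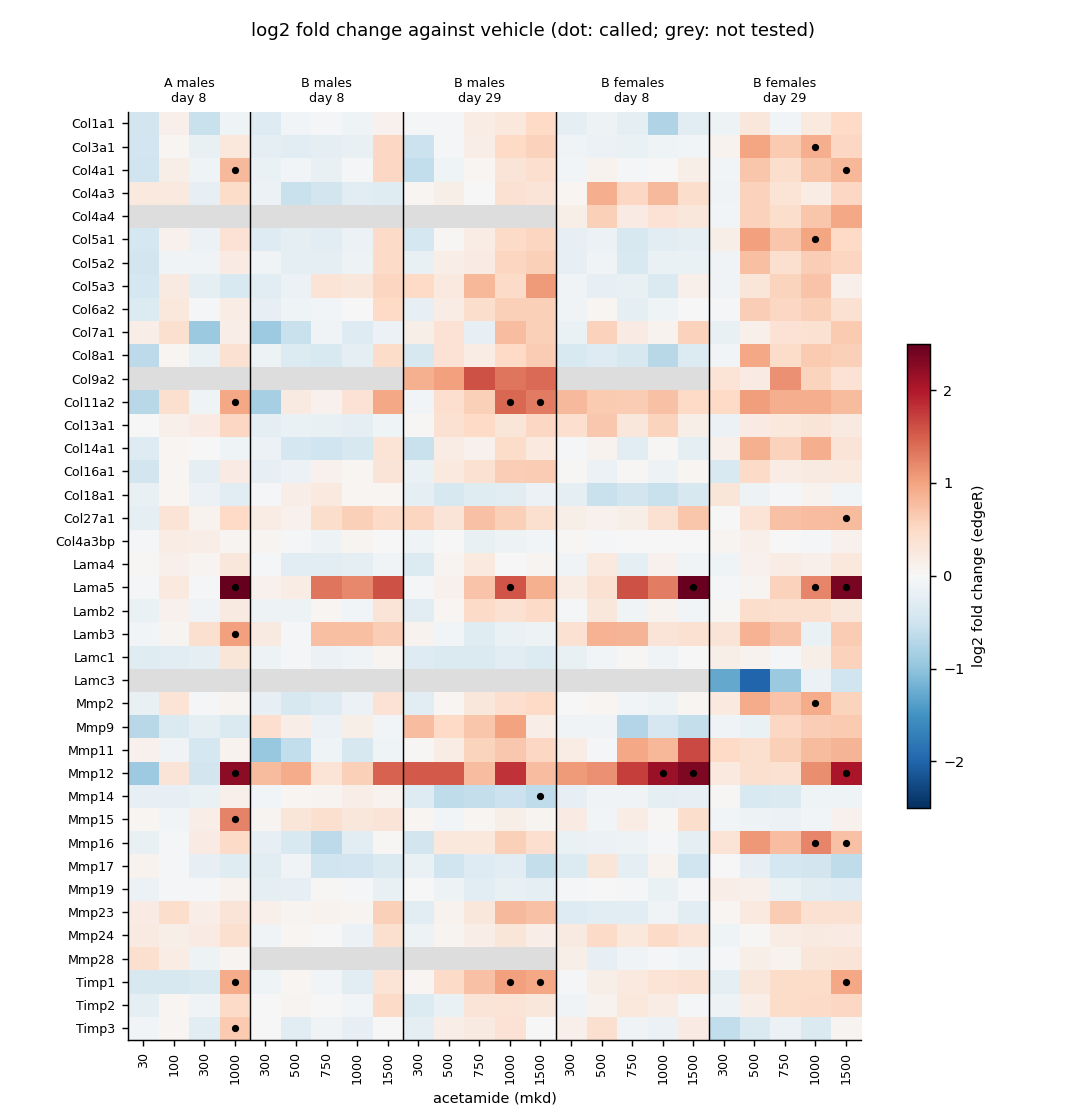
Log2 fold change against the vehicle control (colour) of members tested in at least 1 data set (rows) at each dose in mkd (columns, grouped by data set). Black dots mark called members and grey cells members that were not tested. The rows of Lama5 and Mmp12 hold the darkest red, and the calls lie at 1000 and 1500 mkd.

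Of the laminin chains, Lama5 had the largest fold changes among the members called in 3 of the data sets. Lama5 encodes the alpha 5 chain, a main laminin of mature basement membranes of vessels and epithelia. In experiment A the 5 control rats had 1.60, 2.98, 3.02, 3.54 and 3.79 CPM, and the 5 rats at 1000 mkd had 8.19, 16.5, 21.5, 29.9 and 61.5 CPM. Every treated rat was above every control rat, and the treated rats differed widely among themselves. The log2 fold change was 3.20 (SE, the standard error, 0.46, adjusted p = 0.000116, edgeR), and the call was kept in all 21 alternatives tried. The controls of the females day 29 had 2.40, 3.79, 4.51, 7.28 and 7.37 CPM and the 1500 mkd rats 7.02, 20.8, 28.2, 32.4 and 43.2 CPM. A single treated rat lay within the controls, and the log2 fold change was 2.38 (SE 0.33, adjusted p = 7.35e-05), kept in all 21 alternatives. At 1000 mkd these females had 9.01, 9.06, 9.86, 13.9 and 17.3 CPM, all above the controls (log2 fold change 1.22, adjusted p = 0.0447). At 500 mkd they had 5.33 ± 1.38 CPM (SD, n = 5) against 5.07 ± 2.19 in the control, a difference within the spread.

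Among females day 8 the Lama5 levels at 1500 mkd formed separate sets. The controls had 3.09, 4.78, 4.91, 5.90 and 7.05 CPM, and the treated rats 6.01, 6.47, 32.9, 48.0 and 48.6 CPM. Thus 3 rats were far above the controls and 2 lay within them, and the log2 change was 2.47 (SE 0.54, adjusted p = 0.0373, edgeR). The call was lost in 8 of 10 fits that each left out 1 rat (1500 mkd replicate 2, 3 or 4, or any of control replicates 1 to 5), with an adjusted p of up to 0.143 without 1500 mkd replicate 3. In males day 8 at 1500 mkd all 5 rats (5.67, 7.90, 10.6, 12.4 and 18.7 CPM) were above all controls (3.07, 3.14, 3.68, 4.13 and 4.30 CPM), and yet the adjusted p was 0.159 at a log2 fold change of 1.59. Among males day 29, Lama5 was higher at 1000 mkd (9.47 ± 5.47 CPM, log2 fold change 1.58, adjusted p = 0.0274) than in the control (3.17 ± 0.731 CPM), with all 5 rats above every control. That call was lost without 1000 mkd replicate 2, 3 or 5 or control replicate 2 or 4, with an adjusted p of 0.103 without 1000 mkd replicate 2. At 1500 mkd the males day 29 had 5.84 ± 2.84 CPM (log2 fold change 0.88, adjusted p = 0.134), and the change was 0.57 (adjusted p = 0.336) without replicate 3. The order of doses in these males is a description, since 1500 and 1000 mkd were not compared directly. The call at 1000 mkd in females day 29 was kept in only 2 of 10 single-rat fits (lost without any of 1000 mkd replicates 1 to 5 or control replicates 1, 4 or 5), with an adjusted p of up to 0.135 without 1000 mkd replicate 4.

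The 250 bases before the annotated start of Lama5 are shown because it is the laminin with the widest response. They come from the RefSeq annotation of build GRCr8, while the reads were counted on Rn6. Capitals mark GC boxes (letters GGGCGG on either strand, the sites of Sp1-type factors), of which the stretch holds 4.
Lama5 promoter, chr3:187695975-187696224, - strand: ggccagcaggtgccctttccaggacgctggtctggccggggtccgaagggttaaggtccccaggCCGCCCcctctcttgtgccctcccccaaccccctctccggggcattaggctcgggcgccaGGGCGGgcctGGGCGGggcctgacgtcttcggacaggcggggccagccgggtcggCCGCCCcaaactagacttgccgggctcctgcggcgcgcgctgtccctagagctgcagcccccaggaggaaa
A GC box was found in 30.5% of the 33469 promoters of the same length in that annotation, and in 24 of the 48 members that have one there (50.0%). The stretch has a GC content of 72.8%, and a match of letters is a description, not a site in use.

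Lamb3 encodes a beta chain of an epithelial laminin. Lamb3 rose at 1000 mkd in experiment A, from 1.20 ± 0.417 to 2.47 ± 0.984 CPM (SD, n = 5; log2 fold change 1.03, SE 0.38, adjusted p = 0.0429). It lost its call in 7 of 10 single-rat fits (1000 mkd replicate 2, 4 or 5, or control replicate 1, 2, 3 or 4), with an adjusted p of up to 0.137 without 1000 mkd replicate 4. Lamc1, the most common gamma chain, passed the adjusted p but not the fold criterion in females day 29 (log2 fold change 0.57, adjusted p = 0.0234). Its controls had 26.2, 26.4, 28.2, 33.6 and 44.4 CPM and its 1500 mkd rats 29.7, 37.7, 40.4, 60.6 and 67.2 CPM, so that the groups overlapped. In experiment A, Lamc1 stood at 26.2, 33.8, 35.2, 49.0 and 65.1 CPM in the controls and 39.5, 44.6, 50.4, 56.8 and 66.1 CPM at 1000 mkd (log2 fold change 0.30, adjusted p = 0.307). Lamb2, a beta chain of vessel walls, was at 7.59, 11.3, 11.5, 12.7 and 15.2 CPM against 11.6, 12.2, 13.7, 14.5 and 16.5 CPM in the same groups (log2 fold change 0.23, adjusted p = 0.459). Across females day 29 Lamb2 ranged from 7.36 to 25.4 CPM in the controls (median 11.2) and from 14.3 to 21.3 CPM at 1500 mkd (median 18.3; log2 fold change 0.28, adjusted p = 0.39). Neither Lamc1 nor Lamb2 was called in any dose comparison.

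**Figure D2:**
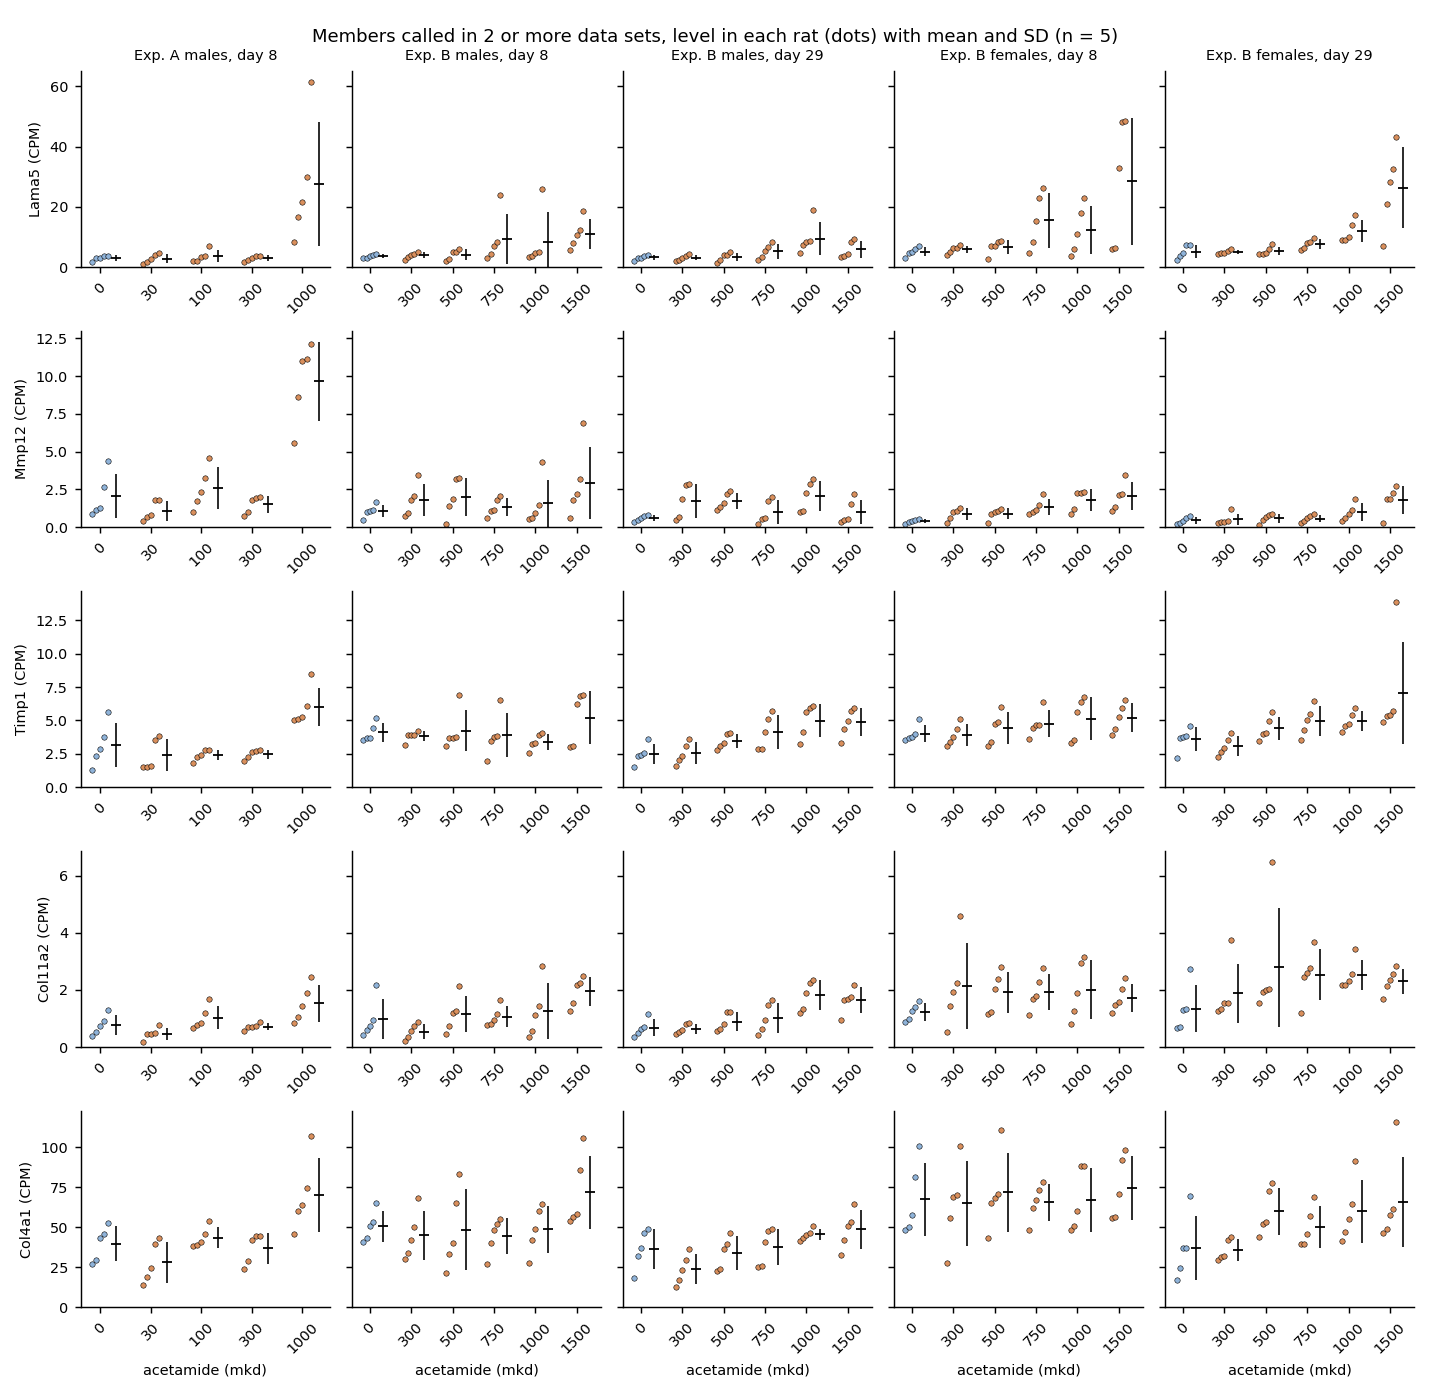
Levels (CPM, linear axes) of the 5 members that were called against vehicle in 2 or more data sets, by dose (mkd) and data set. Each dot is a rat, blue for the vehicle control and orange for acetamide, and the bar to its right is the mean ± SD of 5 rats. At 1000 mkd in experiment A the 5 rats lay between 8.19 and 61.5 CPM for Lama5 and between 5.55 and 12.1 CPM for Mmp12, above all control rats.

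Among the metalloproteinases that edgeR tested, Mmp12 was the member with the largest changes. In experiment A its 5 controls had 0.832, 1.12, 1.29, 2.65 and 4.36 CPM and its 1000 mkd rats 5.55, 8.62, 11.0, 11.1 and 12.1 CPM. The groups did not overlap, and the log2 fold change was 2.23 (SE 0.45, adjusted p = 0.00101, edgeR), kept in all 21 alternatives. In females day 8 the controls had 0.232, 0.349, 0.385, 0.467 and 0.546 CPM and the 1500 mkd rats 1.07, 1.34, 2.13, 2.20 and 3.45 CPM. Again all treated rats exceeded all controls, and the change was 2.34 on the log2 scale (SE 0.42, adjusted p = 0.0200). At 1000 mkd these females had 0.862, 1.20, 2.25, 2.27 and 2.35 CPM (log2 fold change 2.15, adjusted p = 0.0177), also without overlap. The call at 1500 mkd was lost without 1500 mkd replicate 2 or 3 or control replicate 1, 2, 4 or 5 (adjusted p up to 0.108, without 1500 mkd replicate 3), and the call at 1000 mkd without 1000 mkd replicate 5 or control replicate 1, 3 or 5 (up to 0.101, without 1000 mkd replicate 5). On day 29 in females the controls had 0.229, 0.280, 0.389, 0.571 and 0.712 CPM and the 1500 mkd rats 0.298, 1.85, 1.87, 2.24 and 2.70 CPM. Here 4 of 5 rats were above every control, and the log2 fold change was 2.05 (SE 0.52, adjusted p = 0.00662). In males day 29 the log2 fold change of Mmp12 was 1.81 at 1000 mkd (adjusted p = 0.0584, no overlap with the controls) and 0.77 at 1500 mkd (adjusted p = 0.388). In males day 8 it was 1.48 at 1500 mkd (adjusted p = 0.282).

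Macrophage markers were called in some of the comparisons with a Mmp12 call and not in others. In experiment A at 1000 mkd, 7 of 11 macrophage markers tested were up-regulated, among them Cd68, Cd163 and C1qb (log2 fold changes 1.61, 1.18 and 1.15), and the summed level of the 11 ranged from 1527 to 2714 CPM against 611 to 1864 CPM in the control. For females day 29 at 1500 mkd 4 of 11 were up-regulated, and the sum ranged from 1323 to 2595 CPM against 1162 to 1419 CPM. These 2 counts stand beside 14.0% and 9.55% of all genes called up. In females day 8 at 1500 mkd, where Mmp12 was up-regulated, 0 of 11 were called, beside 0.522% of all genes called up. Of these 11 markers, 9 had a log2 fold change above 0 (median 0.23). Their sum ranged from 1082 to 2297 CPM against 1167 to 2054 CPM. The part of macrophage number in the Mmp12 result was not tested.

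Mmp12 lies in a run of 9 Mmp genes that neighbour one another on chromosome 8, in the order Mmp13, Mmp12, Mmp3, Mmp1, Mmp10, Mmp8, Mmp27, Mmp20 and Mmp7. Mmp12 was the only one of the 9 to pass edgeR's filter on low counts. Mmp1 had no read in any of the 145 rats, and the highest count in any rat was 5 for Mmp10, 13 for Mmp8, 16 for Mmp27 and Mmp7, 18 for Mmp13, 22 for Mmp3 and 30 for Mmp20. Each of these counts is a total for 1 rat out of 15449716 or more reads. The 250 bases before the start of Mmp12 are shown with an AP-1 motif (TGAGTCA, the site of Fos and Jun proteins, searched on both strands) and a TATA box (TATAAA, searched on the sense strand) in capitals.
Mmp12 promoter, chr8:12866402-12866651, + strand: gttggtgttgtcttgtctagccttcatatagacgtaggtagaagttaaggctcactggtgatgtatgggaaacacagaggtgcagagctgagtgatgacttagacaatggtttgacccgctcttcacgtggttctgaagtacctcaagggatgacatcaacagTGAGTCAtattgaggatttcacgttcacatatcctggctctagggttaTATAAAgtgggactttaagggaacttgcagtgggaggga
The AP-1 motif begins 87 bases before the start and the TATA box 39 bases before it. The AP-1 motif was found in 4.05% of all 33469 promoters and in 6 of 48 members (12.5%), and all 6 belong to this run. The stretches around the motif are shown to let the 6 be compared, with the motif in capitals (read on the opposite strand, as TGACTCA, in Mmp13).
Mmp13, chr8:12782743-12782789, + strand: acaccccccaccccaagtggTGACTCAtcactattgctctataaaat
Mmp12, chr8:12866545-12866591, + strand: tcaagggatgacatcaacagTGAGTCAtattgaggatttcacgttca
Mmp3, chr8:12925190-12925236, + strand: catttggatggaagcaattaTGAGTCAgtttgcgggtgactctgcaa
Mmp1, chr8:12943349-12943395, + strand: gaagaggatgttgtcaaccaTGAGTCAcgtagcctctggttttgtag
Mmp10, chr8:12974626-12974672, + strand: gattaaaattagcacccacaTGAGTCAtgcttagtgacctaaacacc
Mmp7, chr8:13132943-13132989, + strand: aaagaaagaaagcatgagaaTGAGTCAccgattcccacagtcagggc
In these 6 genes the motif began between 61 and 87 bases before the start, and a TATA box lay 32 to 47 bases before it. A TATA box was found in 8.06% of all promoters and in 12 of 48 members (25.0%). The 5 neighbours with the motif did not pass edgeR's filter on low counts. Of the run, DESeq2 called Mmp7 and Mmp20, which lacks the motif, up-regulated at 1000 mkd in experiment A. Their log2 fold changes in DESeq2 were 2.84 (adjusted p = 0.0109) and 4.81 (adjusted p = 0.0206). Mmp7 had 5 to 16 counts per rat there and at most 2 in the controls, and Mmp20 had 1 to 30 counts and none in the controls. These are few reads, and the motif search says nothing about which factor was bound.

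Mmp15 and Mmp14 encode proteases anchored in the cell membrane, and Mmp14 is best known for activating the secreted gelatinase Mmp2. In experiment A, Mmp15 had 22.2, 22.5, 23.6, 24.0 and 25.8 CPM in the controls and 38.9, 47.1, 49.7, 62.1 and 81.5 CPM at 1000 mkd. The controls were close together and all treated rats were above them, and the log2 change was 1.24 (SE 0.23, adjusted p = 0.000568, edgeR) that was kept in all 21 alternatives. In experiment B, Mmp15 was called at 0 doses, and at 1500 mkd its log2 fold changes were 0.32 and 0.06 in males (day 8 and day 29) and 0.43 and 0.11 in females (adjusted p 0.425 to 0.883). In females day 29 its controls had 32.9, 35.4, 44.2, 63.4 and 67.3 CPM and its 1500 mkd rats 36.4, 48.7, 51.2, 53.7 and 72.4 CPM, which overlap. Whether Mmp15 responded differently in the experiments was not tested.

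Mmp14 was the single member that edgeR called down in a dose comparison. Among males day 29 the controls had 82.5, 86.0, 88.3, 89.3 and 107 CPM and the 1500 mkd rats 43.6, 49.1, 56.8, 57.5 and 83.4 CPM. A single treated rat lay within the controls, and the log2 fold change was -0.64 (SE 0.18, adjusted p = 0.0316, edgeR). That rat aside, the 4 others were below every control rat. Without 1500 mkd replicate 3, the rat that stands apart, it was -0.87 (adjusted p = 0.012). The call was lost without 1500 mkd replicate 1 (adjusted p = 0.0796) or 2 or control replicate 2 or 5. At 1000 mkd all 5 rats (54.7 to 70.3 CPM) were below every control, at an adjusted p of 0.0713. In experiment A, Mmp14 had 48.6, 58.5, 60.9, 90.3 and 124 CPM in the controls and 57.1, 72.9, 86.5, 88.1 and 114 CPM at 1000 mkd (log2 fold change 0.13, adjusted p = 0.695). Among females day 29 it had 80.2, 91.3, 105, 107 and 168 CPM against 84.3, 84.8, 99.5, 116 and 130 CPM at 1500 mkd (log2 fold change -0.10, adjusted p = 0.755), with no separation of the groups.

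Mmp2 and Mmp16, the latter another membrane-anchored protease, were up-regulated in females day 29. Mmp16 had 1.01, 1.21, 1.84, 1.87 and 2.08 CPM in the controls and 2.54, 2.81, 4.15, 4.29 and 5.05 CPM at 1000 mkd (log2 fold change 1.23, SE 0.25, adjusted p = 0.0189, edgeR), without overlap. At 1500 mkd it had 2.00, 2.66, 2.73, 2.88 and 3.02 CPM (log2 fold change 0.73, adjusted p = 0.0378). The call at 1000 mkd was lost without 1000 mkd replicate 4 (adjusted p = 0.0649) or control replicate 1, and that at 1500 mkd without 1500 mkd replicate 1, 2, 4 or 5 or control replicate 1 or 3 (up to 0.0946, without control replicate 1). Mmp2 had 4.39, 6.28, 6.70, 8.55 and 9.58 CPM in the controls, 8.09, 11.7, 13.5, 14.9 and 19.0 CPM at 1000 mkd and 7.24, 9.87, 10.3, 11.4 and 13.6 CPM at 1500 mkd. It was up-regulated at 1000 mkd (log2 fold change 0.92, SE 0.22, adjusted p = 0.029) but not called at 1500 mkd (0.56, adjusted p = 0.0677), and at 500 mkd all 5 rats (12.8 to 14.1 CPM) were above every control at an adjusted p of 0.0806. The call at 1000 mkd was lost without 1000 mkd replicate 1, 3 or 4 or control replicate 1 or 5 (up to 0.0967, without 1000 mkd replicate 4). In experiment A, Mmp2 had 8.85, 12.7, 12.7, 15.2 and 21.8 CPM in the controls and 11.3, 12.9, 13.9, 14.9 and 21.3 CPM at 1000 mkd (log2 fold change 0.06, adjusted p = 0.888), so that the groups lay over one another.

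Mmp9, the gelatinase of neutrophils and macrophages, and Mmp19, which is expressed widely, were called in no dose comparison. In experiment A, Mmp9 had 0.109, 0.492, 0.492, 0.596 and 0.632 CPM in the controls and 0.227, 0.237, 0.264, 0.481 and 0.587 CPM at 1000 mkd (log2 fold change -0.37, adjusted p = 0.467). Across females day 29 it had 0.233, 0.360, 0.688, 0.712 and 0.734 CPM against 0.274, 0.514, 1.15, 1.23 and 1.24 CPM at 1500 mkd (log2 fold change 0.66, adjusted p = 0.288). The spread of Mmp9 exceeded its differences in both. Mmp19 had 37.2, 53.3, 56.5, 63.2 and 83.3 CPM against 59.5, 60.0, 61.5, 62.6 and 66.6 CPM at 1000 mkd in experiment A (log2 fold change 0.08, adjusted p = 0.783). On day 29 in females it had 41.1, 48.4, 57.6, 57.9 and 66.4 CPM against 36.8, 37.8, 39.7, 50.8 and 51.3 CPM at 1500 mkd (log2 fold change -0.33, adjusted p = 0.102). Mmp13, an interstitial collagenase of rodents, was not tested, with at most 18 counts in any rat.

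Timp1, an inhibitor of most secreted metalloproteinases and a classic transcript of activated stellate cells, was up-regulated in 3 data sets. For females day 29 its controls had 2.18, 3.72, 3.75, 3.87 and 4.57 CPM and its 1500 mkd rats 4.85, 5.36, 5.44, 5.72 and 13.9 CPM. All 5 treated rats were above every control, and the log2 fold change was 0.97 (SE 0.25, adjusted p = 0.00754, edgeR). The call was lost only without 1500 mkd replicate 2, the rat at 13.9 CPM (adjusted p = 0.0641), among the fits that left out 1 rat. In males day 29 the controls had 1.48, 2.31, 2.44, 2.54 and 3.60 CPM and the 1500 mkd rats 3.33, 4.34, 4.98, 5.72 and 5.90 CPM, with 4 of 5 above every control (log2 fold change 0.97, SE 0.25, adjusted p = 0.0215). At 1000 mkd these males had 3.24, 4.15, 5.61, 5.91 and 6.05 CPM (log2 fold change 1.02, adjusted p = 0.0295), so that both doses reached about the same level. Without 1500 mkd replicate 3 the value at 1500 mkd was 0.85 (adjusted p = 0.0355), and the call was lost without 1500 mkd replicate 1 or control replicate 2, 3 or 4 (up to 0.0626, without control replicate 4). The call at 1000 mkd was lost without 1000 mkd replicate 2, 3 or 5 or control replicate 2, 3 or 4 (up to 0.0849, without 1000 mkd replicate 2). In experiment A, Timp1 had 1.29, 2.32, 2.83, 3.75 and 5.64 CPM in the controls and 5.05, 5.08, 5.26, 6.11 and 8.47 CPM at 1000 mkd (log2 fold change 0.92, SE 0.30, adjusted p = 0.0246), with 2 of 5 rats above every control. This call was lost without 1000 mkd replicate 2 (adjusted p = 0.0879) or control replicate 2, 3 or 4.

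The 250 bases before the start of Timp1 are shown because it was called in both sexes and both experiments. They hold 1 GC box (capitals) and no AP-1 motif or TATA box of the letters given above.
Timp1 promoter, chrX:3771123-3771372, - strand: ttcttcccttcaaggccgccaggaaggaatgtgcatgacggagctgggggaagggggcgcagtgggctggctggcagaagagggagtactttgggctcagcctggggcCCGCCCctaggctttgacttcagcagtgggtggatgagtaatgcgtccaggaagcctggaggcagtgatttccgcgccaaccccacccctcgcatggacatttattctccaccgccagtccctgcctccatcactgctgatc
Their GC content is 61.2%, against 45.6% before Mmp12.

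Timp2 and Timp3 moved less than Timp1. Timp2 passed the adjusted p but not the fold criterion in experiment A, with 8.28, 11.1, 11.2, 11.8 and 15.0 CPM in the controls and 13.2, 13.3, 15.6, 18.6 and 19.0 CPM at 1000 mkd (log2 fold change 0.47, adjusted p = 0.0247, edgeR). In females day 29 Timp2 had 6.84, 8.63, 9.42, 9.67 and 15.6 CPM against 11.1, 12.0, 14.1, 15.2 and 19.6 CPM at 1500 mkd (log2 fold change 0.52, adjusted p = 0.129). Timp3, which binds to the matrix itself, had 3.05, 3.34, 3.93, 4.74 and 5.45 CPM in the controls of experiment A and 4.38, 5.08, 5.12, 5.70 and 12.0 CPM at 1000 mkd. Its call (log2 fold change 0.66, SE 0.23, adjusted p = 0.0366) was lost without the rat at 12.0 CPM, 1000 mkd replicate 2 (adjusted p = 0.266), and without control replicate 2, 3 or 4. Among females day 29 Timp3 had 4.12, 5.72, 8.24, 11.3 and 14.7 CPM against 7.81, 8.12, 9.06, 9.40 and 11.7 CPM at 1500 mkd (log2 fold change 0.06, adjusted p = 0.899). Timp4 was not tested and had at most 8 counts in any rat.

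The fibrillar collagens Col3a1 and Col5a1 were up-regulated at a single dose of a single data set, 1000 mkd in females day 29. Col3a1 had 106, 138, 152, 224 and 246 CPM in the controls and 195, 258, 330, 346 and 495 CPM at 1000 mkd, with 4 of 5 rats above every control (log2 fold change 0.91, SE 0.23, adjusted p = 0.035, edgeR). At 500 mkd it had 283, 315, 343, 343 and 431 CPM, all above the controls, and an adjusted p of 0.0795. At 1500 mkd it had 180, 218, 256, 268 and 317 CPM (log2 fold change 0.52, adjusted p = 0.11), and 1500 mkd was not compared with 1000 mkd. Col5a1 had 10.5, 14.9, 18.0, 21.7 and 32.4 CPM in the controls, 25.9, 37.6, 38.3, 42.2 and 47.9 CPM at 1000 mkd (log2 fold change 0.98, SE 0.21, adjusted p = 0.0218) and 20.8, 25.6, 28.0, 29.0 and 33.7 CPM at 1500 mkd (0.49, adjusted p = 0.0925). The Col3a1 call was lost without 1000 mkd replicate 1, 3 or 4 or control replicate 1, 4 or 5 (adjusted p up to 0.134, without 1000 mkd replicate 4), and the Col5a1 call without 1000 mkd replicate 4 (0.0753) or control replicate 1 or 5. The vehicle females of day 29, against which these doses were set, were lower than the vehicle females of day 8, which had 289, 313, 320, 469 and 598 CPM of Col3a1, without overlap (day 29 against day 8, log2 fold change -1.12, SE 0.23, adjusted p = 0.109). Mmp2, Mmp16 and Col5a1 had log2 fold changes of -0.87, -0.84 and -0.90 in the same comparison (adjusted p 0.128, 0.128 and 0.134). The levels of Col3a1 at 1000 mkd on day 29 thus overlapped those of the day 8 controls, in CPM scaled within each data set. The part of this control group in the 4 calls of Col3a1, Col5a1, Mmp2 and Mmp16 at 1000 mkd was not tested. In experiment A, Col3a1 had 164, 247, 310, 358 and 419 CPM in the controls and 300, 328, 350, 383 and 448 CPM at 1000 mkd (log2 fold change 0.27, adjusted p = 0.484), within the spread.

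Col1a1, the main chain of scar collagen, was called in no dose comparison. In experiment A its controls had 9.49, 10.6, 19.5, 22.6 and 28.6 CPM and its 1000 mkd rats 11.9, 12.9, 19.0, 19.2 and 21.1 CPM (log2 fold change -0.11, SE 0.32, adjusted p = 0.817, edgeR). Across females day 29 the controls had 3.32, 4.86, 7.34, 8.32 and 11.8 CPM and the 1500 mkd rats 5.36, 8.64, 8.96, 9.60 and 17.3 CPM (log2 fold change 0.49, SE 0.30, adjusted p = 0.266). The groups overlapped in both. Standard errors of this size leave a change of 1.5-fold in Col1a1 hard to detect with 5 rats per group.

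**Figure D3:**
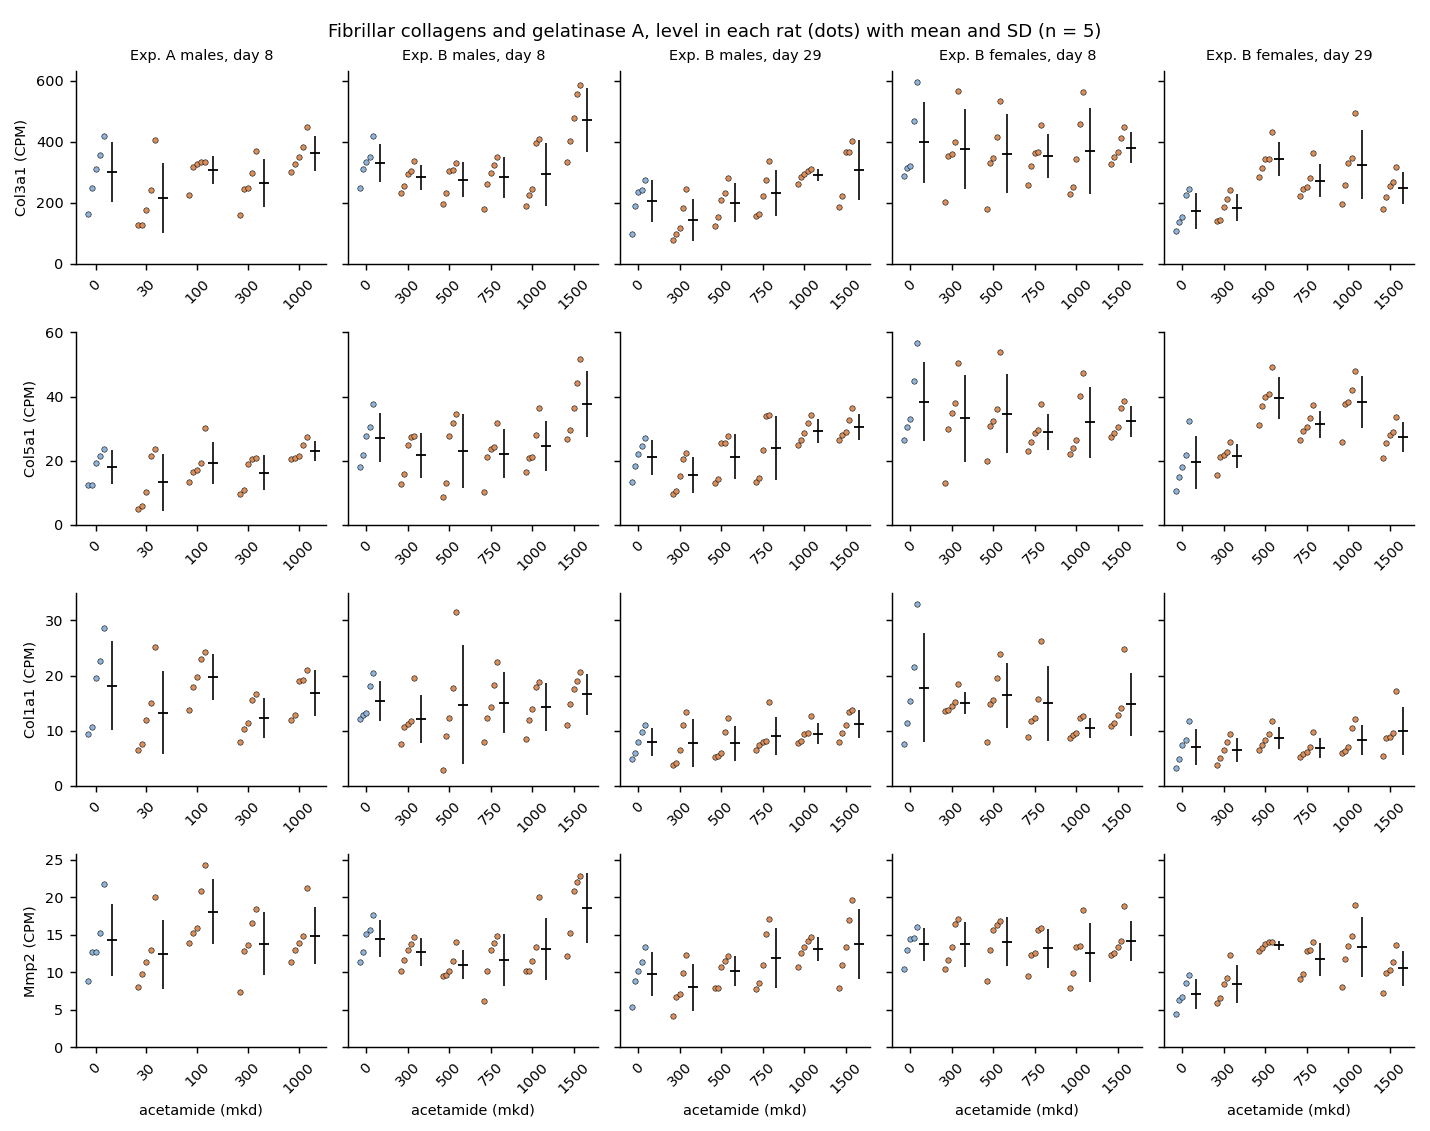
Levels (CPM, linear axes) of 3 fibrillar collagens and of Mmp2 by dose (mkd) and data set. Each dot is a rat, blue for the vehicle control and orange for acetamide, with the mean ± SD of 5 rats beside it. On day 29 in females the 500 mkd rats lay above all control rats for Col3a1 and Mmp2, while Col1a1 overlapped its controls at every dose.

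Of the basement membrane collagens, Col4a1, a chain of the type IV network, was up-regulated at the highest dose in experiment A and in females day 29. In experiment A its controls had 27.2, 29.7, 43.4, 45.5 and 52.8 CPM and its 1000 mkd rats 45.6, 60.1, 63.9, 74.3 and 107 CPM (log2 fold change 0.82, SE 0.27, adjusted p = 0.0253, edgeR), with 4 of 5 above every control. For females day 29 the controls had 17.1, 24.6, 37.0, 37.2 and 69.7 CPM and the 1500 mkd rats 46.2, 48.8, 57.6, 61.4 and 116 CPM (log2 fold change 0.83, SE 0.29, adjusted p = 0.044), with only 1 rat above every control. The call in experiment A was lost without 1000 mkd replicate 2 (adjusted p = 0.115) or 4 or control replicate 2 or 3. That in females day 29 was lost in 7 of 10 single-rat fits (1500 mkd replicate 1, 2 or 3, or control replicate 1, 3, 4 or 5), with an adjusted p of 0.233 without 1500 mkd replicate 2, the rat at 116 CPM. Col18a1, whose cleaved end is endostatin, had 456, 722, 875, 877 and 934 CPM against 355, 486, 632, 860 and 865 CPM at 1000 mkd in experiment A (log2 fold change -0.27, adjusted p = 0.513). In females day 29 it had 501, 612, 616, 726 and 737 CPM against 391, 549, 683, 708 and 708 CPM at 1500 mkd (log2 fold change -0.07, adjusted p = 0.847), and it was called in no dose comparison. Col15a1, another basement membrane collagen, had at most 2 counts in any rat.

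Col11a2 and Col27a1, minor fibrillar collagens best known from cartilage, were called in different data sets. Col11a2 in males day 29 had 0.370, 0.495, 0.638, 0.696 and 1.15 CPM in the controls, 1.19, 1.34, 1.90, 2.24 and 2.36 CPM at 1000 mkd and 0.946, 1.65, 1.67, 1.76 and 2.19 CPM at 1500 mkd. All 5 rats at 1000 mkd and 4 of 5 at 1500 mkd were above every control, with log2 fold changes of 1.44 (SE 0.34, adjusted p = 0.0274, edgeR) and 1.30 (SE 0.34, adjusted p = 0.0224). Without 1500 mkd replicate 3 the latter was 1.12 (adjusted p = 0.0388). It was lost without control replicate 2, 3 or 4 (up to 0.065, without control replicate 4), and the call at 1000 mkd without 1000 mkd replicate 2, 3 or 5 or control replicate 2, 3 or 4 (up to 0.0799, without 1000 mkd replicate 2). In experiment A Col11a2 rose from 0.776 ± 0.351 to 1.53 ± 0.647 CPM (SD, n = 5; log2 fold change 0.97, adjusted p = 0.0325), a call lost without 1000 mkd replicate 1 (0.0978) or 5 or control replicate 2, 3 or 5. Col27a1 in females day 29 had 5.92, 8.36, 8.71, 11.8 and 16.1 CPM in the controls and 13.9, 14.2, 14.3, 15.2 and 30.3 CPM at 1500 mkd (log2 fold change 0.79, SE 0.27, adjusted p = 0.0367), with only 1 rat above every control. It was lost without that rat, 1500 mkd replicate 1 (adjusted p = 0.18), and without control replicate 1, 4 or 5.

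By family, most members had log2 fold changes above 0 at the highest dose, and few were called. Over all members tested, the median log2 fold change was 0.28 in experiment A (32 of 38 above 0), 0.33 and 0.45 in males (28 of 37 on day 8 and 30 of 38 on day 29), and 0.01 and 0.49 in females (21 of 39 and 36 of 41). Over all genes tested, the median lay within 0.07 of 0 under every normalization and filter tried. Of all genes, 50.0% were above 0 in experiment A, 49.5% and 58.4% in males and 49.2% and 49.8% in females. Not every family went this way. At 1500 mkd 5 of 12 metalloproteinases in females day 8 and 3 of 6 laminins in males day 29 were above 0 (medians -0.06 and -0.04). Among females day 29 the median of the 19 collagen symbols tested (Col4a3bp among them) was 0.57, 0.43, 0.62 and 0.49 at 500, 750, 1000 and 1500 mkd, with 17 or 18 of 19 above 0 at each of these doses. Among males day 29 the median of the 18 collagen symbols was 0.18, 0.19, 0.49 and 0.56. In females day 8 the collagen symbols had a median of 0.03 at 1500 mkd. These doses share their control rats, so that the medians within a data set are not independent.

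Within the vehicle controls of experiment B, edgeR called Mmp14 higher in females on day 8, and Col18a1, Col27a1 and Lamc1 lower in females on day 29. On day 8, Mmp14 had 58.1, 77.0, 82.6, 98.5 and 112 CPM in males and 149, 162, 164, 171 and 175 CPM in females. Every female was above every male in CPM, which here and below were scaled within each data set. The joint fit of both sexes gave a log2 change of 0.77 (SE 0.13, adjusted p = 0.000492, edgeR) that was kept in all 10 alternatives. EdgeR called this 1 of 38 members higher in females, beside 4.22% of all genes, and 0 members lower, beside 4.26%. DESeq2 also called Col27a1 and Mmp12 lower in females (log2 fold changes -1.11 and -1.57, adjusted p = 0.0206 and 0.0172), for which edgeR's adjusted p was 0.0563 and 0.0627, and with the replicate number as a block 3 members were called. On day 29 the log2 fold change of Mmp14 was 0.15 (adjusted p = 0.658), and whether the sex difference changed with time was not tested. On day 29, 4 of 39 members, these 3 among them, were called lower in females by edgeR and 0 higher, beside 4.56% and 4.33% of all genes. DESeq2 also called Col13a1, Timp3 and Lamc3 higher in females (log2 fold changes 1.08, 0.87 and 2.62, adjusted p = 0.0469, 0.0357 and 0.0303). For the first and second of these edgeR's adjusted p was 0.0929 and 0.0751, and edgeR did not test Lamc3 in this fit. Col18a1 had 864, 958, 1037, 1088 and 1201 CPM in males and 501, 612, 616, 726 and 737 CPM in females, without overlap (log2 fold change -0.82, SE 0.17, adjusted p = 0.00292), and was kept in all 10 alternatives. Col27a1 had 15.4, 17.0, 23.8, 29.4 and 29.6 CPM in males and 5.92, 8.36, 8.71, 11.8 and 16.1 CPM in females (log2 fold change -1.32, SE 0.29, adjusted p = 0.00461), and 0.0583 without replicate 4 of every group. Lamc1 had 44.8 ± 4.59 CPM in males and 31.7 ± 7.71 CPM in females (SD, n = 5; log2 fold change -0.63, adjusted p = 0.0425), and was lost in 7 of 10 alternatives, among them without replicate 1, 3, 4 or 5 of every group (adjusted p up to 0.161).

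**Figure D4:**
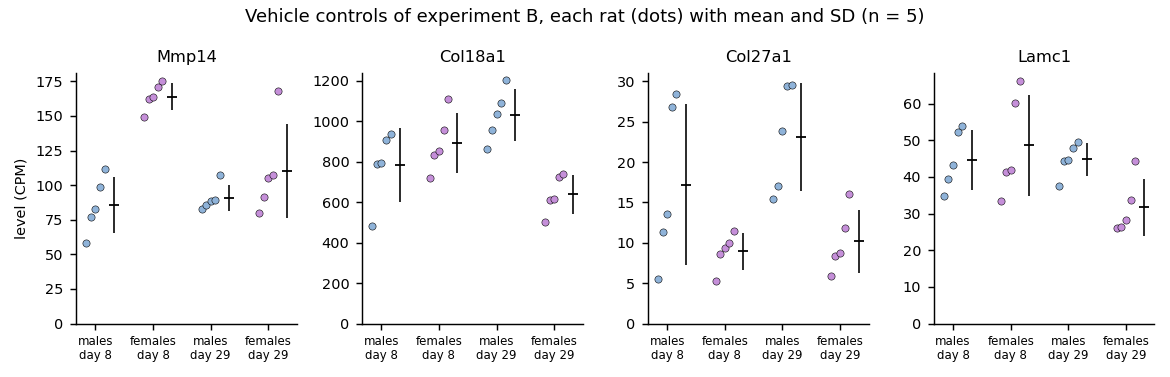
Levels (CPM, linear axes) of 4 members called between the sexes in the vehicle controls of experiment B. Each dot is a rat, blue for males and purple for females, with the mean ± SD of 5 rats beside it. CPM were scaled within each data set, so that the sexes and days do not share TMM factors. On day 8 the females lay between 149 and 175 CPM for Mmp14, above all males, and on day 29 between 501 and 737 CPM for Col18a1, below all males.

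Controls of day 29 had lower levels of many members than those of day 8. The median log2 fold change of day 29 against day 8 was -0.42 in males (9 of 37 members above 0) and -0.22 in females (12 of 40). No member was called by edgeR in either sex, where 0.0% of all genes were, and 11 members in males and 13 in females had an unadjusted p under 0.05, beside 9.48% and 15.4% of all genes. DESeq2 called 0 in males and 5 in females (Col3a1, Col5a1, Col5a2, Mmp16 and Mmp2), and its share of all genes is not given here. Rats of day 29 were older and were sampled at another time, and these cannot be told apart. Interactions of 1500 mkd with sex and with duration were called for 0 members and 0.0% of all genes by edgeR, in each of 4 tests, and for 0 members by DESeq2. At an unadjusted p under 0.05 there were 5 (sex, day 8), 4 (sex, day 29), 2 (duration, males) and 3 (duration, females) members, beside 4.11%, 11.7%, 3.74% and 4.93% of all genes. Thus a call in one sex or at one time-point is not shown to differ from the other.

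The partners of these genes were counted in lists of the same pathways. In experiment A at 1000 mkd, 5 of 20 fibrogenic signals were up-regulated, among them the growth factors Tgfb1 (log2 fold change 1.29) and Pdgfa (1.10). Of 10 regulators of matrix proteases 4 rose, among them the urokinase Plau (1.14), its receptor Plaur (1.12) and Plat (0.71). Of 13 basement membrane partners and receptors 3 rose, the matrix protein Fbln1 (1.28), the collagen receptor Ddr1 (1.24) and the laminin receptor chain Itga6 (1.17), and 1 fell. Of 23 collagen processing genes 4 rose (Adamts3, P3h2 and Loxl2 with 1.09, 0.80 and 0.80 among them), and of 15 other matrix proteins 2 rose and 2 fell (Fmod -1.62, Fbn1 0.80 and Vtn -0.73 among them). All 5 shares up are to be read beside 14.0% of all genes.

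Across females day 29 at 1500 mkd, 7 of 20 fibrogenic signals (Tgfb2 1.38, Ctgf 1.20 and Pdgfra 1.01 among them) and 6 of 15 other matrix proteins were up-regulated. The latter include the small proteoglycans Dcn (1.47), Prelp (0.92) and Bgn (0.90). Of 13 basement membrane partners 4 rose (Itga6 1.65, Fbln1 1.36 and Ddr1 1.21 among them), of 23 collagen processing genes 3 (Loxl1 1.04, Pcolce 0.89 and Adamts2 0.80), and of 9 protease regulators 3 (Plaur 1.28, Reck 0.75 and Plau 0.73), beside 9.55% of all genes. In males day 29 at 1500 mkd, Serpinh1, the collagen chaperone (0.92), and the elastic fibre protein Efemp2 (0.95) rose and Fn1, fibronectin, fell by 0.75 on the log2 scale. These 3 calls were kept without replicate 3, the rat that stands apart. The calls of Fbln1 (2.14), Eln (1.37), Ctsk (0.78) and Itgb4 (0.64) were lost without that rat, with log2 fold changes of 0.36, 0.28, 0.54 and 0.53. Fbln1 was at 2.19 ± 3.38 CPM and Eln at 11.1 ± 12.6 CPM in the 5 rats at 1500 mkd (SD), with replicate 3 at 8.23 and 33.5 CPM. With all 5 rats, 2 of 23 collagen processing genes, 2 of 13 basement membrane partners and 2 of 15 other matrix proteins rose. Of the last, 1 fell. Of all genes, 3.16% were called up and 1.76% down there. Of 20 fibrogenic signals 0 were called with and 2 without that rat, and of 9 protease regulators 0 in both fits. In males and females of day 8, 0 genes of any of the 11 lists were called at 1500 mkd. Of all genes, 0.142% were called up and 0.0354% down in these males, and 0.522% up and 0.183% down in these females.

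Markers of the cells that make or border the matrix moved to different degrees. Of 13 stellate cell and myofibroblast markers, 1 rose (Cygb, 0.73) and 1 fell in experiment A at 1000 mkd, and the summed level was 395 to 618 CPM against 373 to 591 CPM in the control. On day 29 in females at 1500 mkd 3 rose (Ngfr 1.90, Cygb 1.16 and Ecm1 0.70), with a sum of 411 to 723 CPM against 351 to 547 CPM. Among males day 29 at 1500 mkd 0 were called (1 without replicate 3), with a sum of 368 to 577 CPM against 219 to 387 CPM. Endothelial markers rose for 4 of 10 genes in experiment A (Cdh5 1.82, Lyve1 0.96 and Tek 0.80 among them) and for 2 of 10 in females day 29. Cholangiocyte markers rose for 1 of 6 in experiment A (Cldn4 1.32), 2 of 6 in males day 29 (Cldn4 1.49 and Cftr 1.20, the latter not called without replicate 3 at 1500 mkd) and 2 of 7 in females day 29 (Cldn4 0.95 and Sox9 0.63). Hepatocyte markers fell for 3 of 10 in experiment A (Ttr, Alb and Fgb), where their sum was 85374 to 260396 CPM against 264491 to 353924 CPM, and for 2 of 10 in females day 29 (Alb and Cps1), where Apoa1 rose. Of 4 neutrophil markers tested, 1 rose and 2 fell in experiment A and 2 rose in females day 29, and Elane, Ltf and Cd177 had at most 3 counts in every rat of the vehicle and highest dose groups. These counts stand beside 14.0% of all genes called up and 7.45% called down in experiment A at 1000 mkd. At 1500 mkd on day 29 the shares were 3.16% up and 1.76% down in males. In females they were 9.55% up and 3.54% down. The part of these cells in the levels of the members was not tested.

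Rats of the same group also differed from one another in a common direction. For each of 37 members tested in all data sets, log2(CPM + 0.5) was taken as the deviation from the mean of its group over 145 rats, and those of Col3a1 and Lama5 were related to the 36 other members, 6 summed marker lists and the reads on genes. With Col3a1, 27 of 36 members had a positive and 1 (Col4a3bp) a negative correlation at an adjusted p of at most 0.05, by a two-sided permutation test within groups with 100000 resamples and Benjamini-Hochberg adjustment over 86 relations. The r of these 27 members was 0.26 or more, which 15.6% of 11065 genes tested in all data sets also reached. The closest was Mmp2 (Pearson's r = 0.83, Spearman's rho = 0.81, both with a permutation p of 1e-05, the smallest the resamples can give, adjusted 2.53e-05 and 2.69e-05), with r of 0.69 to 0.94 within the 5 data sets and 0.81 without the 2 rats farthest from the median. It was followed by Col6a2 (r = 0.82, rho = 0.81), Col4a1 (0.81 and 0.83), Col5a1 (0.80 and 0.82) and Col5a2 (0.77 and 0.74), with the same permutation p. For Timp1 r was 0.56 and for Col1a1 0.62, while it was 0.00 for Mmp14 (permutation p = 0.966) and 0.03 for Lamb3 (permutation p = 0.777). The summed stellate cell markers had r = 0.69 with Col3a1 (0.42 to 0.80 within data sets), and the reads on genes r = 0.03.

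With Lama5, 29 of 36 members had a positive and 1 (Col4a3bp) a negative correlation by the same test, at an r of 0.19 or more for the 29, which 29.4% of all genes reached. The highest correlations were lower than those with Col3a1. The closest were Col4a1 (r = 0.53, rho = 0.57, both with a permutation p of 1e-05), Col16a1 (0.49 and 0.49) and Mmp15 (0.48 and 0.51), and r with Mmp12 was 0.35, from -0.29 to 0.68 within the data sets. Among marker lists, the summed cholangiocyte markers had r = 0.40 (0.26 to 0.64 within data sets) and the endothelial markers 0.39, against 0.10 for the stellate cell markers (permutation p = 0.263) and -0.48 for the hepatocyte markers. All values of a rat share its library and its scaling, so that a fall of abundant transcripts raises the CPM of the others, and the part of this in the correlations was not tested.

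**Figure D5:**
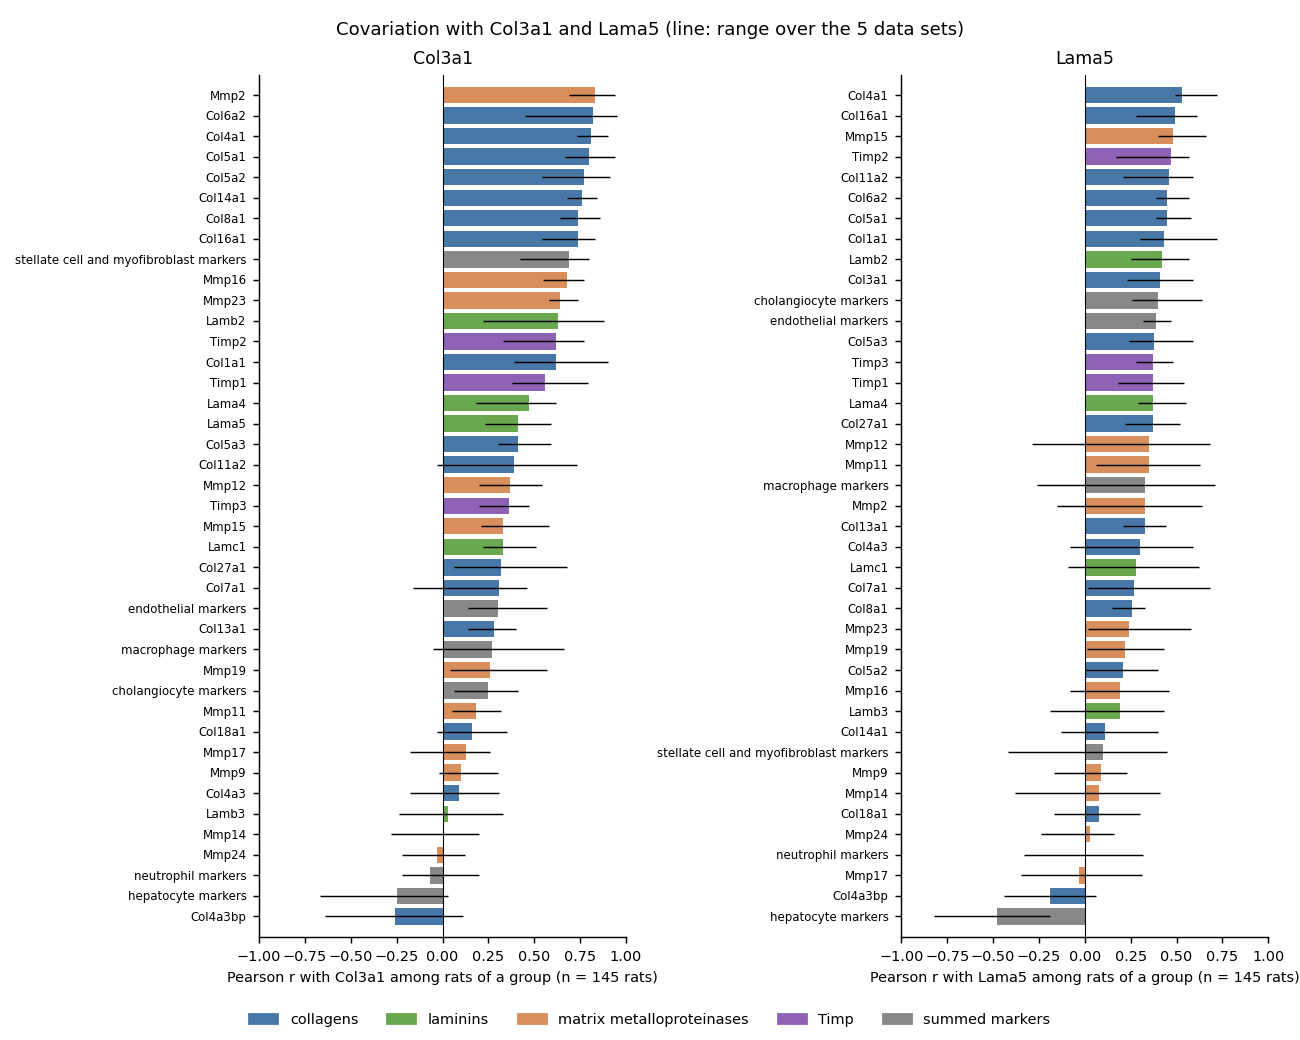
Pearson's r, among rats of the same group (145 rats), of Col3a1 (left) and of Lama5 (right) with other members tested in all data sets and with 6 summed marker lists. Bars give r over all rats, coloured by family, and black lines its range over the 5 data sets. Mmp2, Col6a2, Col4a1 and Col5a1 lead with Col3a1 (r = 0.83 for Mmp2), and Col4a1 leads with Lama5 (r = 0.53).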

How the data were processed

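Left liver lobes were taken 24 h after the last dose, and poly(A) RNA was sequenced as 75-base single reads of a stranded library. The authors trimmed the reads with Trimmomatic, aligned them to rat build Rn6 with Bowtie2 and deposited raw counts per gene from HTSeq. Whether counting used the strand is not given in the sources used here, and Bowtie2 does not split reads over introns, so that reads across exon junctions can be lost. The deposited counts were used as they stand. In experiment B the HTSeq lines that name no gene held 35.5% to 67.1% of a rat's total (median 41.2%) and were left out. All sample columns were used (0 left out), and 0 pairs of columns were identical.

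Counts were tested in R 4.3.3 with edgeR 4.0.16 (quasi-likelihood F-test, TMM factors, default expression filter, all groups of a data set in 1 fit). The sex and time-point comparisons were each fitted on the vehicle and 1500 mkd groups concerned. A call needed a 1.5-fold difference and an adjusted p (Benjamini-Hochberg) no higher than 0.05. The standard error is the size of the log2 fold change divided by the square root of F. The steps were tested on simulated data. As alternatives, DESeq2 1.42.0 (Wald test) was run, its size factors were used in edgeR, the filter was dropped or set to 10 counts for all rats, replicate numbers entered as a block, the fit was limited to the 2 groups compared, and rats were left out.

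Members were named when called at a highest dose or between vehicle groups. Every rat's value was planned for up to 4 called members per comparison whose groups did not overlap and whose mean reached 1 CPM, and for a fixed set of anchor genes whatever their result, and up to 3 called genes per list were named. Some genes that these rules name are not reported here, and they stay in the counts. Col4a2, Col6a1 and Lamb1 of that set have no row here. Values per rat of other called members, the results at 1000 mkd in experiment B with their alternatives, the promoter motifs and the correlations among rats were added after the data were seen. Members and lists were chosen with earlier results of these data known. The 11 lists hold 158 symbols, of which 12 have no row. All 61 members matched a RefSeq symbol, and 48 have a promoter in the table of build GRCr8, whose coordinates differ from those of Rn6.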

Additional observations from a re-analysis of the deposited data

Results flagged for a closer look

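Of 84 groups of 5 rats tested for a rat far from the rest, 6 held one by Dixon's criterion, and chance gives about 1 in 20 groups. Replicate 2 of the experiment A controls had 0.109 CPM of Mmp9 against 0.492 to 0.632 CPM in the other 4 rats. Replicate 2 at 1000 mkd in experiment A had 12.0 CPM of Timp3 against 4.38 to 5.70 CPM, and without it the call of Timp3 was lost (adjusted p = 0.266, edgeR). In females day 29 at 1500 mkd, replicate 1 had 30.3 CPM of Col27a1 against 13.9 to 15.2 CPM (adjusted p = 0.18 without it, edgeR). Replicate 2 of the same group had 116 CPM of Col4a1 against 46.2 to 61.4 CPM and 13.9 CPM of Timp1 against 4.85 to 5.72 CPM, and both calls were lost without it (adjusted p = 0.233 and 0.0641, edgeR). Replicate 5 of the day 29 control males had 107 CPM of Mmp14 against 82.5 to 89.3 CPM, and without it Mmp14 was not called at 1500 mkd. The cause of these values was not tested.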

How the results depend on the processing

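No named member changed direction once called. Of 34 calls, 7 were kept in every alternative run for them (among them Lama5, Mmp12 and Mmp15 in experiment A, Lama5 in females day 29, and the sex differences of Mmp14 on day 8 and Col18a1 on day 29). With the fit limited to the 2 groups compared, members called at the highest dose numbered 5 in place of 8 in experiment A, 0 in place of 3 in males day 29, 1 in place of 2 in females day 8 and 3 in place of 7 in females day 29, and at 1000 mkd 5 in place of 3 in males day 29 and 1 in place of 5 in females day 29. DESeq2 called 5 members over the lower doses in males day 29 (edgeR 3), 8 over the lower doses in females day 29 (5), 8 at 1000 mkd alone (5), 3 between the sexes on day 8 (1), 7 on day 29 (4) and 5 between days in vehicle females (0). With at least 10 counts in every rat, females day 8 had 1 call at 1500 mkd (2), 0 at 1000 mkd (1) and 0 over the lower doses (1).

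The replicate numbers did not pair the rats throughout. On day 8 of experiment B, between control and highest dose, 4 male and 3 female rats were closest to their own number. Between the vehicle sexes of day 8, 4 were. In the same comparisons of day 29 the counts were 2, 1 and 0, and in experiment A 2. Whether rats of the same number shared an effect on day 8 was not tested. Same-numbered rats had correlations of -0.31 to 0.39, over 0.1 in 19 of 35 pairs, and in 0 of 7 comparisons in every pair or with every rat closest to its own number. With the replicate number as a block, females day 8 had 0 calls at 1500 mkd in place of 2, the sexes on day 8 had 3 in place of 1, and the days in vehicle females 1 in place of 0.

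Leaving out 1 rat gave 3 to 8 calls at the highest dose in experiment A, 0 to 0 in males day 8, 0 to 4 in males day 29, 0 to 3 in females day 8 and 4 to 11 in females day 29, and at 1000 mkd 0 to 5 in males day 29, 0 to 2 in females day 8 and 0 to 9 in females day 29. In males day 29 at 1500 mkd the count of 3 was 1 without 1500 mkd replicate 1 or control replicate 3 or 4 and 0 without control replicate 2. At 1000 mkd it was 5 without 1000 mkd replicate 1, 1 without control replicate 3 and 0 without 1000 mkd replicate 2, 3 or 5 or control replicate 2 or 4. In females day 8 at 1500 mkd the count of 2 was 1 without 1500 mkd replicate 4 or control replicate 3 and 0 without 1500 mkd replicate 2 or 3 or control replicate 1, 2, 4 or 5. In females day 29 at 1500 mkd the count of 7 was 4 without 1500 mkd replicate 2 or control replicate 1 and 11 without control replicate 2. At 1000 mkd the count of 5 was 2 without 1000 mkd replicate 1 or 3, 0 without 1000 mkd replicate 4 or control replicate 1, 8, 9, 3 and 1 without control replicates 2, 3, 4 and 5.

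Leaving out 1 replicate number of every group gave 3 to 6 calls at the highest dose in experiment A, 0 to 2 in males day 29, 0 to 3 in females day 8 and 4 to 7 in females day 29, 0 to 3, 0 to 2 and 0 to 7 over the lower doses of these 3 data sets, 1 to 2 between the sexes on day 8 and 1 to 4 on day 29. The cause of these shifts was not tested. Genes near or below 1 CPM, such as Mmp9, Mmp12 and Col11a2, rest on few counts per rat.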

Other observations

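Col1a2, whose product joins that of Col1a1 in type I collagen, had at most 1 read in any rat and none in 134 of 145 rats, while Col1a1 was tested in all 5 data sets. Col15a1 was likewise at 0 in 138 rats. The cause was not tested, and the levels of these 2 genes in the count data say nothing about their expression in these livers.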
